A study of Lotus japonicus with 14 samples.

Results

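The step from 5 to 7 days after inoculation (dai) was examined in nodules of the legume Lotus japonicus, in 8 of the 14 libraries of the series. The 4 libraries of 7 dai were set against the 4 of 5 dai, taken from the sample titles and paired by plant genotype and rhizobial strain. The plants were either wild type MG20 (Miyakojima) or apn1, which the labels give as a Fix- mutant. They grew without added nitrogen and received Mesorhizobium loti MAFF303099 or TONO. Each genotype, strain and day was measured in 1 library. The spread between pairs therefore includes genotype and strain, and no condition has a replicate of its own. Per the labels' protocols, primordia and developing nodules were cut from roots, and the number of plants per library is not given in the sources used here. Uninoculated roots of each genotype and the 10 dai nodules lie outside the comparison and serve below to describe the genes. The Fix- phenotype could not be checked here, and the effect of apn1 cannot be told apart from any other difference of its line from MG20.

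Legumes form nodules when root cells perceive signals from rhizobia, divide and build a primordium that the bacteria enter through infection threads. The bacteria are then released into plant cells, where they come to fix nitrogen, and the plant makes leghemoglobin, transporters and metabolic enzymes for the exchange. The APN1 gene is known to encode an aspartic peptidase of nodules. The gene models here carry identifiers only, and 0 of 38476 matched the reference gene table. None of the 30 nodulation gene symbols looked up could be tied to an identifier, so no gene names, tissue markers or sequences are given. Gene models that are near-identical, overlapping or antisense may share reads, since the counting tool and its use of strand are not given.

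Library totals at 5 dai ran from 51189011 to 58395305 counts, close to the 48180653 to 55377555 counts of 7 dai. Less deep were those of 10 dai, with 33981124 to 37261815 counts. Levels are given as counts, or as CPM, which is counts per 1000000 of library size after TMM scaling over the 14 libraries. A count of 0 allows up to 3 counts, or 0.0462 to 0.0646 CPM in the 8 libraries, which covers counting error only. On the first principal component of the 8 libraries, which held 59.5% of the variance, the 5 dai libraries lay at −96.9 to −41.8 and the 7 dai libraries at 57.5 to 79.1. At 5 dai the TONO libraries lay lowest, at −96.9 in wild type and −81.7 in apn1. At 7 dai they also lay below the MAFF303099 libraries.

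Nodule RNA moved toward gene models that roots barely express. Root-silent gene models, under 1 CPM in both roots, numbered 10327. In wild type with MAFF303099 they held 2.66% of the counts at 5 dai and 7.62% at 7 dai, and with TONO 1.5% and 5.76%. In apn1 the corresponding shares were 2.06% and 6.83% with MAFF303099, and 1.57% and 4.96% with TONO. The groups did not overlap, and each pair rose 2.87-fold to 3.85-fold. The mean rise was 4.35 ± 0.71 percentage points (SD, n = 4 pairs). A two-sided exact paired permutation test gave p = 0.13, the smallest that 4 pairs allow. Fewer cells of a type and less RNA per cell cannot be told apart in such shares. Without the 10 most abundant gene models of each library the mean rise was 2.40 points. The roots themselves held 0.242% and 0.253% in these gene models.

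The rise in share came with a small gain in the number of models detected. Root-silent models at 1 CPM or more numbered 1025 to 1263 at 5 dai and 1225 to 1433 at 7 dai, higher in 4 of 4 pairs. Across all models 27244 to 27675 reached 1 CPM at 5 dai and 27373 to 27791 at 7 dai. The counts also became more concentrated. The fewest models that together held 50% of the counts were 1332 to 1521 at 5 dai and 1151 to 1319 at 7 dai, fewer in 4 of 4 pairs. For both measures the exact permutation p was 0.13. The share of the 10 most abundant models rose in 2 of 4 pairs, with a mean change of 0.381 ± 0.679 percentage points (SD, n = 4 pairs; exact permutation p = 0.5).

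**Figure D1:**
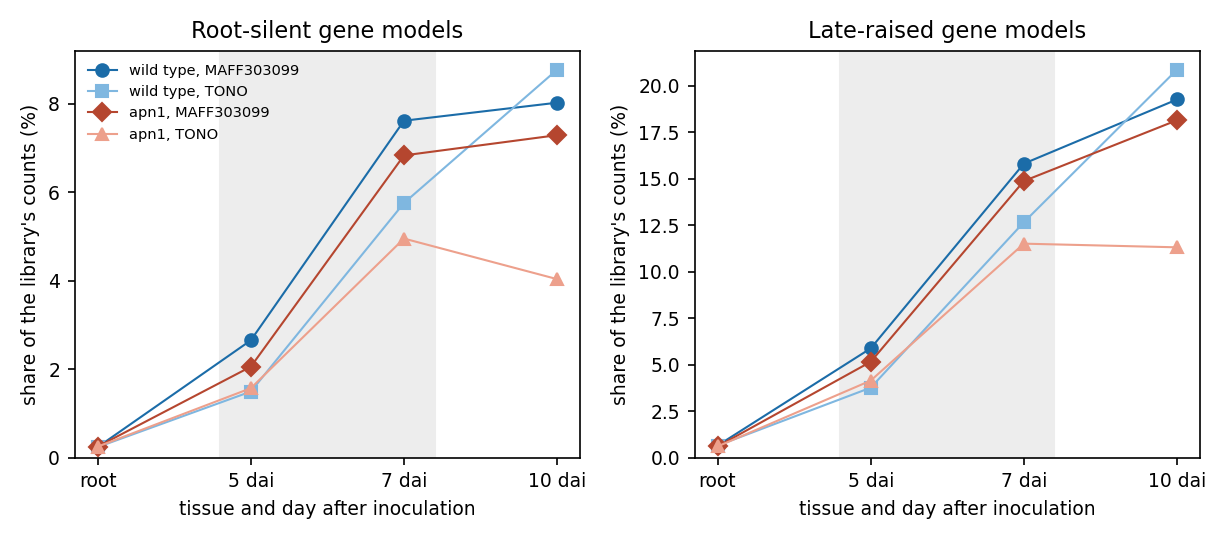
Share of each library's counts (%, vertical axis) held by root-silent gene models (left) and by late-raised gene models, at least 4-fold above their own root in every 10 dai library (right), in roots and at 5, 7 and 10 dai. Each point is 1 library, lines join a genotype-strain combination, the band marks the days compared, and in both panels all 4 combinations are higher at 7 than at 5 dai; the late-raised models were defined from roots and 10 dai, so only their 5 and 7 dai points are free of that choice.

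Gene by gene, 4945 models rose and 4607 fell from 5 to 7 dai among 32806 tested (edgeR quasi-likelihood, Benjamini-Hochberg adjusted p under 0.05). These were 15.1% and 14% of the genes tested, 29.1% together. The direction was the same in all 4 pairs for 9458 of the 9552. The balance of rises and falls depends on how the libraries are scaled. Under TMM the median log2 change of all genes was 0.00. Scaling by total counts, tried after the data were seen, moves it to −0.14 and gives 3628 rises and 7464 falls. Upper-quartile scaling gave 4461 and 5323. Rises and falls are therefore stated relative to the TMM scaling. Changes of 2-fold or more split into 2021 rises and 1265 falls, but 1717 and 1747 with total counts. At 4-fold there were 700 rises and 258 falls, and with total counts 612 and 338, so rises outnumbered falls under both. At 16-fold the numbers were 108 and 12. Without the apn1 MAFF303099 pair 6104 genes passed. In a model of all 12 nodule libraries 6430 did.

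The strongest rise by fold change was that of chr1.CM0171.270.r2.m on chromosome 1, a gene model almost without reads until 7 dai. In wild type it had 39 counts at 5 dai and 22398 at 7 dai with MAFF303099, and 8 and 9069 with TONO. In apn1 it went from 6 to 22234 counts with MAFF303099 and from 3 to 13481 with TONO. Every 7 dai library exceeded every 5 dai library (log2 fold change 10.50, SE 0.41, edgeR adjusted p = 4.72e-06). Over the pooled counts the ratio was 1251 (exact 95% interval 963 to 1657, counting error only). The roots had 5 and 9 counts, and the 10 dai libraries 14599 to 35819.

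LjSGA_143580.1, which has no chromosome in its identifier, was unread in the 5 dai libraries and in both roots, each at 0 counts. At 7 dai it had 180 counts in wild type with MAFF303099 and 94 in apn1 with MAFF303099, but 19 and 6 counts with TONO. Over the pooled libraries it was at least 104-fold higher at 7 dai, with 3 counts taken for the 5 dai group (edgeR adjusted p = 0.00118). At 10 dai it reached 79 to 2126 counts, lowest in apn1 with TONO. A difference of its rise between the strains did not pass the test (edgeR interaction, adjusted p = 1).

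Both models that fell most had more reads at 5 dai than in roots and few or none at 7 dai. LjSGA_066713.1 had 39 and 88 counts at 5 dai in wild type with MAFF303099 and TONO, and 41 and 92 in apn1. At 7 dai it had 0 and 0 counts in wild type and 2 and 4 in apn1. The pooled ratio of 5 to 7 dai was 41.5 (exact 95% interval 18.8 to 114, counting error only). The edgeR log2 fold change was −5.16 (SE 0.64, adjusted p = 0.000673). In the roots it had 5 and 3 counts, and at 10 dai 0 to 7.

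LjSGA_089145.1 had 68 and 539 counts at 5 dai in wild type with MAFF303099 and TONO, and 133 and 371 in apn1. It was thus higher with TONO at 5 dai in both genotypes. At 7 dai the counts were 9 and 12 in wild type and 6 and 1 in apn1. The pooled ratio of 5 to 7 dai was 38.0 (exact 95% interval 26.2 to 57.5, counting error only). By pair the log2 change ran from −6.75 to −2.55. The edgeR log2 fold change was −4.85 (SE 0.55, adjusted p = 0.000417). The roots held 10 and 0 counts, and the 10 dai libraries 0 to 5.

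Measured by the change in CPM, other gene models led. On chromosome 5, chr5.CM0062.80.r2.m went from 23701 to 410695 counts in wild type with MAFF303099 and from 4966 to 292053 with TONO. In apn1 it went from 25965 to 502578 and from 6361 to 346343 counts. Its mean level rose from 257 ± 196 to 7264 ± 1411 CPM (SD, n = 4 libraries a day). On the log2 scale it rose by 5.21 (SE 0.41; edgeR adjusted p = 6.08e-05). The roots had 22 and 20 counts.

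A second chromosome 5 model, chr5.CM0089.1200.r2.m, rose by a similar factor in every pair, 3.63 to 4.07 on the log2 scale. With MAFF303099 it went from 31721 to 361669 counts in wild type and from 31592 to 376729 in apn1. With TONO it went from 13901 to 178679 and from 15294 to 210903 counts. Its log2 fold change of 3.84 had the small SE of 0.12 (edgeR adjusted p = 3.07e-06, the smallest in the comparison). The roots had 48 and 40 counts.

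Falls in CPM were led by chr4.CM0432.2470.r2.a, an abundant chromosome 4 model. It had 330702 and 394738 counts at 5 dai in wild type with MAFF303099 and TONO, and 325008 and 421941 in apn1. At 7 dai it had 59773 and 102739 counts in wild type and 67954 and 99387 in apn1. Its mean level fell from 6056 ± 569 to 1579 ± 528 CPM (SD, n = 4 libraries a day; edgeR log2 fold change −1.99, SE 0.14, adjusted p = 3.80e-05). The roots had 45157 and 47987 counts, below every 7 dai library, and the 10 dai libraries 4563 to 13793, below the roots.

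The other leading fall was chr4.LjT13G24.120.r2.a, also on chromosome 4. From 5 to 7 dai it went from 187926 to 93838 counts in wild type with MAFF303099 and from 280815 to 121069 with TONO. In apn1 it went from 257574 to 155165 and from 326165 to 181156 counts. Each pair fell (edgeR log2 fold change −0.75, SE 0.091, adjusted p = 0.000597). Scaled for depth the days overlapped, at 3050 to 5026 CPM at 5 dai and 1649 to 3282 CPM at 7 dai, with apn1 and TONO the highest on both days. The roots had 72553 and 63760 counts.

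**Figure D2:**
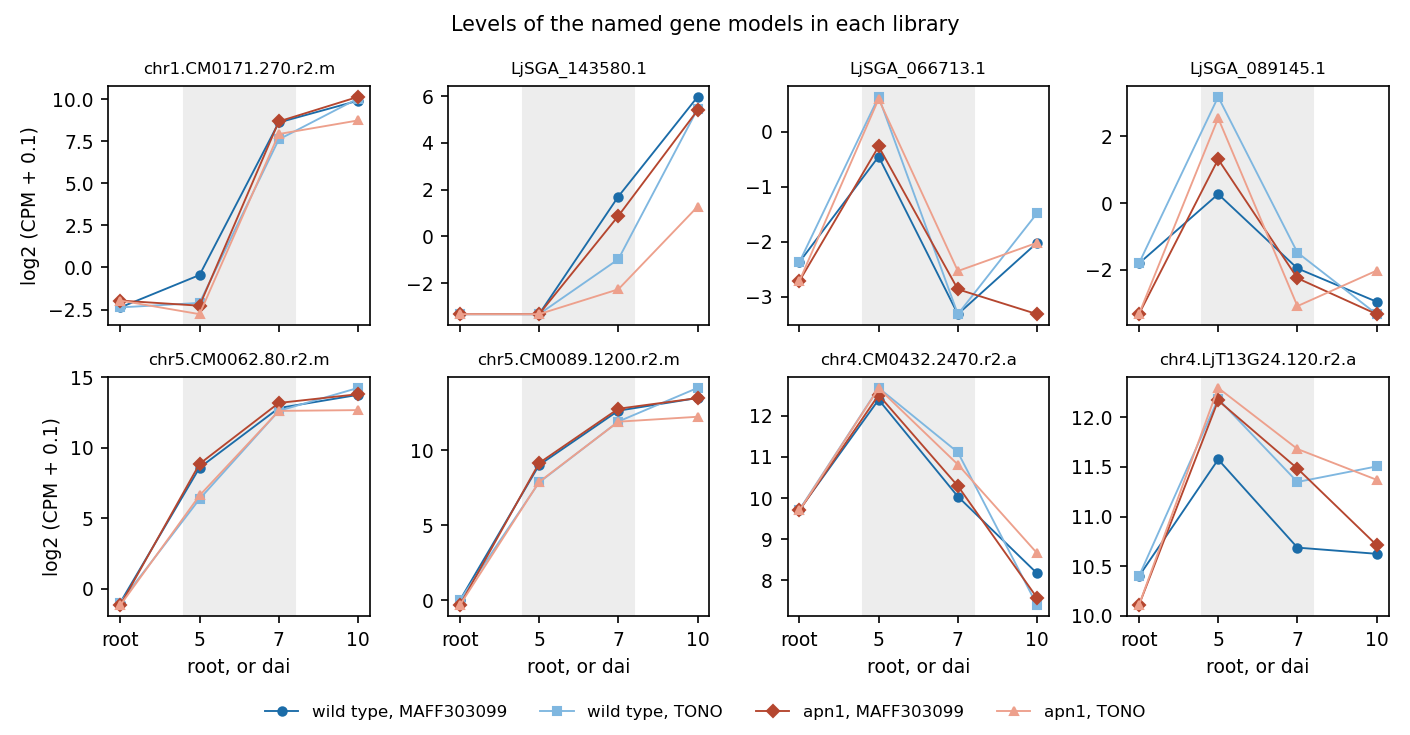
Level of 8 named gene models in each library as log2 of CPM plus 0.1 (vertical axis), in roots and at 5, 7 and 10 dai, with 1 point per library and the compared days on a grey band. The upper row holds the largest rises and falls by fold change and the lower row those by change in CPM; the 4 rising models are higher and the 4 falling models lower at 7 than at 5 dai in every combination.

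The same genes were then read in libraries outside the comparison. Of the models that rose, 14.9% were late-raised, that is, at least 4-fold above their own root in every 10 dai library, against 2.8% of all tested genes. Of the models that fell, 6.51% were at least 4-fold below their own root in every 10 dai library (late-lowered), against 2.35%. The median log2 difference between 10 dai nodules and roots was 0.80 for the models that rose and −0.63 for those that fell. It was −0.01 over all tested genes.

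The same overlap was also counted from the side of the late-raised class. It held 932 gene models, of which 919 passed the filter on low counts. Of the 919, 736 rose from 5 to 7 dai and 37 fell, or 80.1% and 4.03%, beside 15.1% and 14% of all genes tested. The class had a median log2 fold change of 1.69, against 0.00 over all tested genes. By pair the class medians were 1.5 and 1.88 in wild type with MAFF303099 and TONO, and 1.60 and 1.70 in apn1. Late-raised models held 3.77% to 5.88% of the counts at 5 dai and 11.5% to 15.8% at 7 dai.

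The late-lowered class moved less. Of its 921 models 772 were tested, and 300 of these fell and 29 rose, or 38.9% and 3.76%. The median log2 fold change was −0.59. Relative to their own root, all 921 models were already at a median log2 ratio of −2.31 to −2.08 at 5 dai. At 7 dai it was −2.86 to −2.61 and at 10 dai, which chose them together with the roots, −3.52 to −3.01. By contrast, the median ratio of the 932 late-raised models to their root was 1.79 to 2.42 at 5 dai and 3.70 to 4.07 at 7 dai. Because consecutive steps share libraries, the values are set side by side without a test.

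Root level alone separated the calls less. Among 4790 tested root-silent models 677 rose and 298 fell, 14.1% and 6.22%, beside 15.1% and 14% of all genes tested. The filter left out 5537 root-silent models of low count, so these shares do not stand for the class as a whole. Among 28016 root-expressed models 15.2% rose and 15.4% fell. The 1627 root-abundant models, at least 100 CPM in both roots, fell more often than they rose, at 22.6% against 13.8%. With total counts 7.93% of the root-abundant models rose and 36.1% fell, and of the root-expressed models 10.7% and 25.2%. The late-raised class moved little, with 77% risen and 5.11% fallen under total counts. Of the 100 models most abundant at 10 dai, 49 rose, 27 of them at least 4-fold, and 10 fell. Of the 100 most abundant in roots, 14 rose and 20 fell, the rises near the 15.1% of all genes tested. Rises of at least 4-fold numbered 700 among all 32806 genes tested.

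**Figure D3:**
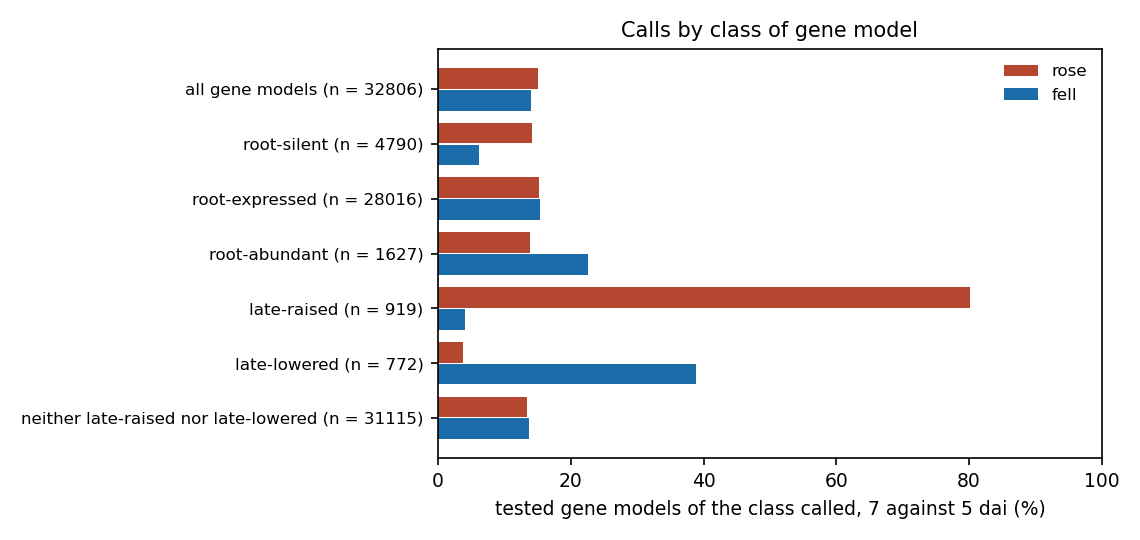
Share of tested gene models of each class that rose or fell from 5 to 7 dai (%, horizontal axis; edgeR adjusted p under 0.05), with the number tested in each class. Classes come from root and 10 dai libraries only; 80.1% of late-raised models rose and 38.9% of late-lowered models fell, beside 15.1% and 14% of all models.

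Models that rose at least 4-fold were near or little above root level at 5 dai. These 700 models had a median CPM of 1.16 in roots, against 6.73 over all tested genes. Of the 700, 45.6% were root-silent, against 14.6% of all tested genes. A low root level was not particular to rises. The 258 models that fell at least 4-fold had a median root CPM of 1.85, and 31% were root-silent. At 5 dai the median log2 ratio of the 700 to the root was 0.61 in wild type and 0.53 in apn1 with MAFF303099. With TONO it was −0.17 and 0.06. At 7 dai the medians were 3.23 and 3.43 with MAFF303099, and 2.75 and 2.87 with TONO. At 10 dai, which the choice did not use, they were 3.30, 3.62, 3.48 and 2.84 in wild type with MAFF303099 and TONO and in apn1 with MAFF303099 and TONO.

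Models that fell at least 4-fold stood above the root at 5 dai and below it afterwards. Their 258 members had a median log2 ratio to the root of 1.30 to 1.93 at 5 dai and −0.88 to −0.13 at 7 dai. At 10 dai it was −1.94 to −1.37, and 179 of the 258 lay below their root in all 4 combinations, 69.4% against 30.5% of all tested genes. A fall to root level or below thus held for the class median in each combination, and not for every member.

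**Figure D4:**
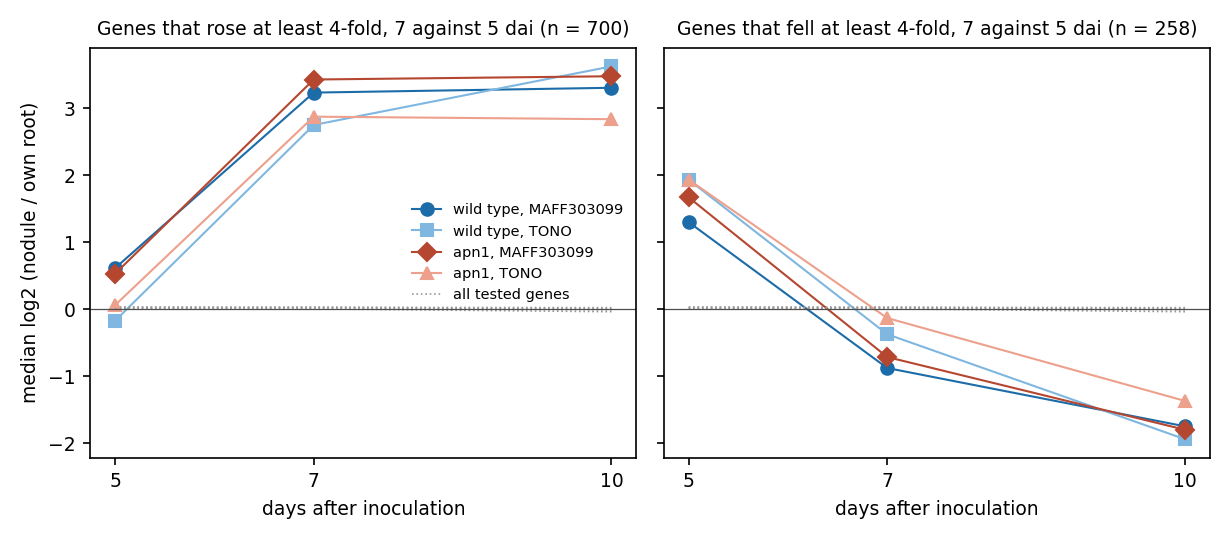
Median log2 ratio of nodule to own root (vertical axis) at 5, 7 and 10 dai for models that rose (left, 700) or fell (right, 258) at least 4-fold from 5 to 7 dai, by genotype-strain combination, with all tested genes dotted near 0. The 5 and 7 dai values were used to choose the models; the medians of risen models at 10 dai run from 2.84 to 3.62, and those of fallen models from −1.94 to −1.37.

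Few models switched fully between days. Under 1 CPM in all 5 dai libraries and at least 10 CPM in all 7 dai libraries were 10 models, a limit set after the data were seen. Of these, 9 were root-silent, against 14.6% of all tested genes. At 10 CPM or more in all 10 dai libraries were 8, for which no share over all genes is given. The 5 and 7 dai levels chose these models, so both counts are a description. The reverse, from at least 10 CPM to under 1 CPM, was met by 0 models. By counts of 0 the order was the other way. From 0 counts in all 5 dai libraries to above 0 in all 7 dai libraries went 8 models, and 26 did the reverse. Of these, 2 of the 8 and 0 of the 26 passed the filter on low counts. Which direction led thus depends on the limit used.

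Changed models lay on all chromosomes. By the chromosome in the identifier, 15.9% (chromosome 6) to 17.3% (chromosome 1) of tested models rose and 13.2% (chromosome 3) to 15.6% (chromosome 4) fell. Among 13145 models with an LjSGA identifier, which names no chromosome, 12.5% rose and 14% fell. Models numbered next to each other on a contig often shared a direction. Of 3300 models that rose and had a tested numbered neighbour, 43.4% had a neighbour that also rose, against 28.9% of 19654 models with a neighbour. For falls the shares were 37.3% and 24.9%. Of 469 models that rose at least 4-fold and had such a neighbour, 147 (31.3%) had one that did the same, against 4.38%. Of 125 that fell at least 4-fold 11.2% had such a neighbour, against 1.21%. Neighbours may be duplicated genes that share reads, which was not tested.

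Of 526 contigs with at least 10 tested models, 6 had at least 50% of their models risen and 1 had at least 50% fallen. The highest share was on chr3.CM0936 of chromosome 3, where 8 of 12 models rose and 0 fell. On chr3.LjT04M14, also of chromosome 3, 7 of 11 rose and 0 fell. On chr5.LjT43D06 of chromosome 5, 6 of 12 fell and 2 rose. Over all genes tested 15.1% rose and 14% fell. These contigs were picked from the 526 for their shares, which are given without a test.

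The day effect was next compared between the genotypes. In wild type 2390 models rose and 1772 fell, 7.29% and 5.4% of those tested or 12.7% together. In apn1 2611 rose and 2140 fell, 7.96% and 6.52% or 14.5% together. Total counts gave 1957 rises and 3017 falls in wild type, and 2068 and 3232 in apn1. Both counts rest on few libraries. For wild type 2467 models passed without its TONO pair, 2669 without the apn1 MAFF303099 pair and 2706 without the apn1 TONO pair, and for apn1 1162 without its MAFF303099 pair and 1025 without its TONO pair. The interaction of day and genotype passed for 0 of 32806 genes with edgeR (0%), with 1059 at an unadjusted p under 0.05, which is 3.23%. With limma 0 genes passed and with DESeq2 18, each with a higher log2 change in apn1. The median SE of this interaction was 0.285 on the log2 scale. A test with 2 residual degrees of freedom can miss differences of genotype, and no call does not show that the genotypes act alike. The model also held no day by strain term, so a day effect that differs by strain stays in its spread. A model with both interactions, an alternative chosen after seeing the data, left fewer than 2 residual degrees of freedom. In it 33 gene models passed for genotype and 607 for strain. The separate counts for genotype and strain are thus not a like comparison.

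Wild type and apn1 share no library in these tests but share 1 estimate of the spread. Both called 1934 rising models, 80.9% of the wild type list and 74.1% of the apn1 list, and 0 models that rose in wild type fell in apn1. Of the falling models 1328 were shared, 74.9% and 62.1%, and 1 model that fell in wild type rose in apn1. For the 2390 models that rose in wild type the median log2 fold change was 1.35 in wild type and 1.24 in apn1.

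By the rule for named genes, largest change in both pairs of a genotype, the rises in wild type were again chr1.CM0171.270.r2.m and LjSGA_143580.1, the second of which missed the threshold with DESeq2 (adjusted p = 0.192). In apn1 the second was chr4.CM0831.250.r2.d, from 4 to 2087 counts with MAFF303099 and from 1 to 1919 with TONO. In wild type it had 12 and 20 counts at 5 dai and 2062 and 1235 at 7 dai. Falls led by fold change were of low count. In wild type, beside LjSGA_066713.1, chr1.CM0105.1610.r2.m went from 49 and 45 counts to 0 and 0, and in apn1 from 11 and 30 to 0 and 7. In apn1 LjSGA_034482.1 went from 14 and 70 counts to 0 and 0, and in wild type from 2 and 20 to 0 and 4. LjSGA_087685.2 went from 23 and 79 to 0 and 1 in apn1, and from 15 and 64 to 4 and 12 in wild type. The edgeR adjusted p-values of these falls were 0.0224, 0.0159 and 0.00552 in the order named. Without the apn1 MAFF303099 pair both apn1 falls missed the threshold (0.0686 and 0.055), and LjSGA_087685.2 also did without the apn1 TONO pair (0.117). None of the models named had a genotype interaction past the threshold (edgeR adjusted p = 1 for each).

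The day effect was then compared between the strains. With MAFF303099 3037 models rose and 2593 fell, 9.26% and 7.9% of those tested or 17.2% together. Without a MAFF303099 pair that count was 2274 or 2609, and without the wild type TONO pair 9292. With TONO 4010 rose and 3345 fell, 12.2% and 10.2% or 22.4% together. Falls outnumbered rises under upper-quartile scaling, at 2862 rises and 2973 falls with MAFF303099 and 3716 and 3905 with TONO. By total counts rises and falls were 2419 and 4338 with MAFF303099, and 3187 and 5178 with TONO. Rises stayed ahead with DESeq2 size factors in edgeR, at 2991 and 2652 with MAFF303099 and 3944 and 3393 with TONO. The interaction of day and strain passed for 112 models, 0.341% of those tested. Of these, 92 had a higher log2 change with TONO (0.28%) and 20 a lower one (0.061%). The number rests on single pairs, with 24 models without the wild type MAFF303099 pair and 1170 and 1097 without the wild type or the apn1 TONO pair. With DESeq2 515 models passed.

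Most of the 92 models were lower with TONO than with MAFF303099 at 5 dai, and most were not at 7 dai. At 5 dai 90 of the 92 were lower with TONO than with MAFF303099 in wild type and 91 in apn1, with median log2 differences of −1.16 and −1.0. At 7 dai the medians were 0.61 and 0.45. These days chose the models, so the values are a description. At 10 dai, which was not used, the medians were 0.51 in wild type and 0.39 in apn1, against −0.01 and 0.03 over all tested genes. With TONO 84 of the 92 rose and 2 fell, and with MAFF303099 37 rose and 26 fell. Over all tested genes 12.2% rose and 10.2% fell with TONO, and 9.26% and 7.9% with MAFF303099. Late-raised models made up 22 of the 92, or 23.9%, against 2.8% of all tested genes.

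For 20 models the log2 change was lower with TONO. Their median TONO minus MAFF303099 difference on the log2 scale was 1.61 at 5 dai in wild type and 1.08 in apn1, and −0.47 and −0.71 at 7 dai. The 2 days chose these models as well, so their values and calls are a description. With TONO 14 of the 20 fell and 5 rose, beside 10.2% and 12.2% of all tested genes. With MAFF303099 4 fell and 8 rose, beside 7.9% and 9.26% of all tested genes. At 10 dai the medians were 0.05 in wild type and −0.29 in apn1. Late-raised models made up 5 of the 20, or 25%, and late-lowered models 5 as well, against 2.8% and 2.35% of all tested genes.

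Among the 92, chr4.CM0680.140.r2.m on chromosome 4 showed the largest difference. With TONO it went from 49 to 699 counts in wild type and from 50 to 1025 in apn1. With MAFF303099 it went from 280 to 361 and from 405 to 538 counts. The strains thus differed at 5 dai, in opposite order to 7 dai (interaction on the log2 scale 3.93, SE 0.25, edgeR adjusted p = 0.00313). The roots had 492 counts in wild type and 38 in apn1.

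Next came chr5.CM0299.210.r2.m on chromosome 5, which rose with both strains. With TONO it went from 13 to 21813 counts in wild type and from 21 to 21530 in apn1, and with MAFF303099 from 494 to 34847 and from 160 to 26810. Its interaction was 3.80 (log2, SE 0.45, edgeR adjusted p = 0.0173, and 0.0662 with limma). A model of the same contig, chr5.CM0299.580.r2.d, led the rises with TONO beside chr1.CM0171.270.r2.m. It went from 11 to 26517 counts in wild type and from 30 to 25872 in apn1, and its interaction of 3.71 missed the threshold (edgeR adjusted p = 0.055). Whether the 2 models share reads was not tested.

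Among the 20, LjSGA_037981.1 fell most with TONO, from 921 to 20 counts in wild type and from 695 to 19 in apn1. With MAFF303099 it went from 71 to 35 and from 58 to 28 counts (interaction −4.11, SE 0.36, edgeR adjusted p = 0.00627). LjSGA_018929.1 went from 398 to 33 and from 497 to 28 counts with TONO, and from 101 to 55 and from 88 to 57 with MAFF303099. Its interaction was −2.89 (SE 0.41, edgeR adjusted p = 0.0308), and it missed the threshold without either MAFF303099 pair. Roots held more of both models than any 5 dai library of MAFF303099, with 412 counts of LjSGA_037981.1 in wild type and 3733 in apn1, and 590 and 3299 of LjSGA_018929.1.

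**Figure D5:**
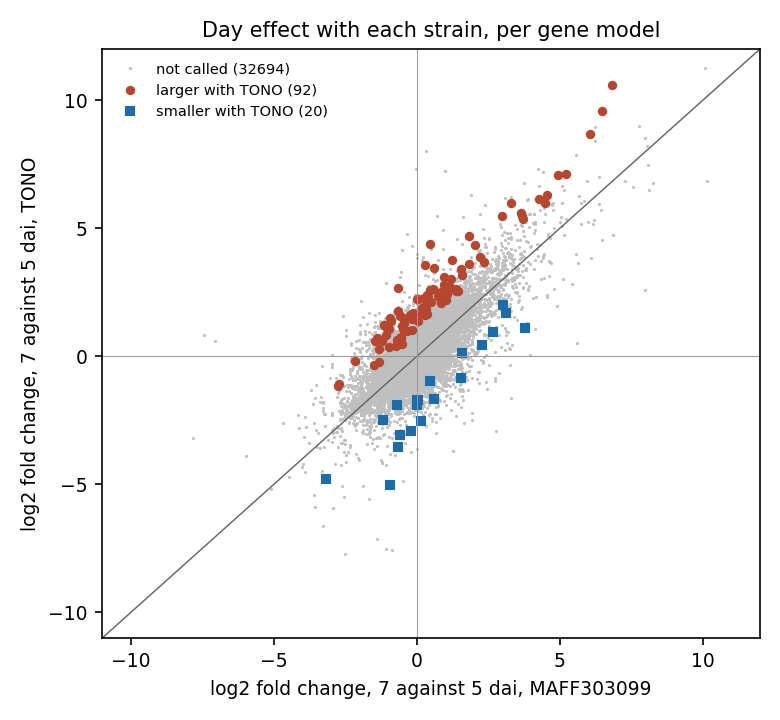
Log2 fold change from 5 to 7 dai with MAFF303099 (horizontal axis) against that with TONO (vertical axis) for each tested gene model, with a diagonal of equal change. Models whose change differed between the strains (edgeR interaction, adjusted p under 0.05) are marked, 92 larger and 20 smaller with TONO; of the 92, 37 rose and 26 fell with MAFF303099.

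The remaining models named within a strain were falls of low count. With MAFF303099 they were chr1.CM0105.1610.r2.m and LjSGA_127809.0.1, which went from 31 to 0 counts in wild type and from 14 to 0 in apn1. With TONO the latter had 7 and 12 counts at 5 dai and 21 and 8 at 7 dai. With TONO chr2.LjT08I01.100.r2.a on chromosome 2 went from 40 and 20 counts to 0 and 0, and with MAFF303099 from 9 and 14 to 0 and 4. LjSGA_137284.1 went from 23 and 29 counts to 0 and 0 with TONO, and from 24 and 11 to 8 and 9 with MAFF303099. Their edgeR adjusted p-values within the strain were 0.0247, 0.0177, 0.0124 and 0.00845, and both MAFF303099 falls missed the threshold without either MAFF303099 pair, at up to 0.261 and 0.172. None had a strain interaction past the threshold, with edgeR adjusted p-values of 0.718, 0.174, 0.632 and 0.268 in the order named.

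The strains' lists still overlapped widely. Both called 2443 rising models, 80.4% of the MAFF303099 list and 60.9% of the TONO list, and 1825 falling models, 70.4% and 54.6%. Called in opposite directions were 6 models that rose with MAFF303099 and fell with TONO, and 28 that fell with MAFF303099 and rose with TONO. For chr5.CM0062.80.r2.m, the leading rise in CPM, the interaction was 1.85 (log2, edgeR adjusted p = 0.0085). It had started lower with TONO, at 4966 and 6361 counts against 23701 and 25965.

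Pair by pair, with 1 library against 1 and no replicate check, wild type with TONO had the most models at least 2-fold apart. There were 3307 higher and 2637 lower at 7 dai, 10.1% and 8.04% of those tested or 18.1% together. For apn1 with TONO the numbers were 2893 and 2274, 8.82% and 6.93% or 15.8% together. In wild type with MAFF303099 they were 2420 and 1921, 7.38% and 5.86% or 13.2% together. In apn1 with MAFF303099 they were 2628 and 2031, 8.01% and 6.19% or 14.2% together. By total counts every pair had more models lower than higher. These were 3393 lower and 2757 higher in wild type with TONO, 2843 and 2505 in apn1 with TONO, 2453 and 2007 in wild type with MAFF303099, and 2631 and 2188 in apn1 with MAFF303099.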

How the data were processed

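RNA-seq libraries were made with ScriptSeq after plant and bacterial ribosomal RNA had been depleted, per the labels' protocols. The authors deposited 12 tables, per the file headers, with original read counts of 1 nodule library beside the root of its genotype. Each lists 38476 gene models. The normalized signal of the same tables (iDEGES/DESeq), which the authors scaled within each table, was not used. Bowtie2 2.0.2 and DESeq appear in the submitters' processing notes. No source used here gives a genome build, annotation or counting tool. Each root, identical in 6 tables, entered once, and 0 columns stayed unmapped.

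Models averaging at least 10 counts over the 8 libraries (totals equalized) were tested by edgeR quasi-likelihood after TMM scaling, with 4 genotype-strain combinations as blocks plus day. Residual degrees of freedom were 3, or 2 with a single interaction, and fewer than 2 with both interactions in the same model. P-values are two-sided and measure what these additive terms leave over, a coefficient of variation of 17.1% between libraries. Per-pair values used a prior count of 2, and an SE is the size of the log2 change over the root of F. The scripts were tested on simulated counts, where false calls exceeded the nominal share.

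Named genes are at most 2 rising and 2 falling per comparison, by fold change or change in CPM, among called genes with 1 direction in every pair. For an interaction, both pairs of a strain had to lie beyond both of the other. Members, classes and lists were chosen with earlier results of these data known. Tools were edgeR 4.0.16, DESeq2 1.42.0 and limma 3.58.1 under R 4.3.3, with matplotlib 3.10.9 under Python 3.11.15 for plots.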

Additional observations from a re-analysis of the deposited data

Results flagged for a closer look

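The test of day by strain singled out 112 gene models whose change from 5 to 7 dai differed between TONO and MAFF303099. Among the models named by rule, the TONO minus MAFF303099 difference of the log2 change was 3.93 for chr4.CM0680.140.r2.m and 3.80 for chr5.CM0299.210.r2.m. It was −4.11 for LjSGA_037981.1 and −2.89 for LjSGA_018929.1. It was 1.85 for chr5.CM0062.80.r2.m, which had the largest rise in CPM. In none of the 8 leading models or 4 library measures examined did 1 pair stand apart from the other 3 by Dixon's test. With only 4 values per test, a pair must lie very far from the rest to be flagged. The 8 models were also chosen for 1 direction in every pair, which favours agreement between pairs. The test therefore cannot show that the pairs agree.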

How the results depend on the processing

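No named model turned its direction under any alternative that tested it. The naming rule asked for agreement between pairs, which made such a turn unlikely. The balance of rises and falls did turn with the scaling, over all pairs from 4945 and 4607 to 4461 and 5323 by upper quartile and 3628 and 7464 by total counts. With DESeq2 size factors in edgeR it did not turn, at 4855 and 4723. Over all 4 pairs 6104 (without the apn1 MAFF303099 pair) to 8253 models passed when 1 pair was left out, against 9552, and 8162 passed with no replicate block, that is, with combinations left unpaired. The strain interaction called 348 models with no filter on low counts, 515 with DESeq2 and 607 with both interactions in 1 model, an alternative chosen after seeing the data, against 112. Leaving out 1 pair gave 24 to 1170. For the genotype interaction DESeq2 called 18 and the model with both interactions 33, and leaving out 1 pair gave 0 each time. Counts without 1 pair ran from 2467 to 4614 in wild type, 1025 to 6770 in apn1 and 2274 to 9292 with MAFF303099. Where a lone library remained, it was taken to vary like the others. The rise of the root-silent share, 4.35 points, was 3.38 with a limit of 0.5 CPM and 2.40 without the 10 most abundant models. At 2-fold in place of 4-fold, 65.9% of late-raised models rose and 34.7% of late-lowered models fell. At 0.5 CPM 16.7% of root-silent models rose and 14.7% of root-expressed models fell. The 8 models named for all pairs passed under every alternative that tested them. The causes of these shifts were not tested. With 1 library per condition, no difference within a single combination can be tested.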
